A study of Mus musculus with 3 samples.

Results

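MHC class II molecules are the surface proteins that show peptides from the endosome to CD4 T cells. The transcripts described are those of 7 of the 27998 genes in the deposited gene list: Cd74, H2-Aa, H2-Ab1, H2-Eb1, H2-DMa, H2-DMb1 and Ciita. They were taken by gene symbol, without use of any measured value, and all 7 were found. An alpha and a beta chain form the class II dimer: H2-Aa and H2-Ab1 encode the chains of I-A, and H2-Eb1 encodes the beta chain of I-E. The invariant chain, encoded by Cd74, fills the groove of the new dimer and guides it to the endosome, where the DM heterodimer (H2-DMa with H2-DMb1) exchanges the remaining invariant chain fragment for peptide. Ciita encodes the coactivator that assembles on class II promoters. It is active at rest in B cells and dendritic cells, and interferon gamma induces it in other cells, including endothelium and fibroblasts.

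The cells were sorted from mouse bone marrow, with 1 droplet single-cell RNA library in each of 3 groups. WT was from untreated female CB6F1 mice, which are hybrids of BALB/c and C57BL/6. BMT was from female CB6F1 mice irradiated with 2 doses of 4.0 Gy and given bone marrow cells of B6.SJL mice, which carry the CD45.1 allele, 4 hours later. aGVHD (acute graft-versus-host disease) was from mice treated in the same way that also received spleen cells of female C57BL/6 mice. Both transplanted groups therefore share irradiation and the marrow graft. By the labels they differ in the spleen cells, and as each is 1 library, that treatment and other differences between the libraries cannot be told apart. For all 3 groups, cells stained for CD45, lineage antigens or CD71 were removed by flow sorting, and dead cells were removed with Calcein AM and DAPI. The labels do not give the marrow donors' sex, the mice per library or the day of collection. Each group had 1 library, so the spread between mice is unmeasured and there are no tests or p-values. All intervals are exact 95% intervals that cover counting error only.

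The genes of H2-DMa (ENSMUSG00000037649, chromosome 17, 34119541 to 34139101), H2-DMb1 (ENSMUSG00000079547, 34153072 to 34160230), H2-Ab1 (ENSMUSG00000073421, 34257689 to 34269419), H2-Aa (ENSMUSG00000036594, 34282744 to 34287823) and H2-Eb1 (ENSMUSG00000060586, 34305867 to 34316674) lie in this order on chromosome 17 of GRCm38. H2-Aa is on the minus strand, and the others on the plus strand. RefSeq promoter windows for GRCm38 matched 4 of the 7 genes: H2-Aa, H2-Eb1, H2-DMa and H2-DMb1. The 3 sequences that follow are the 120 bases before the RefSeq start sites of H2-Aa (chr17:34287824-34287943, minus strand), H2-Eb1 (chr17:34305747-34305866, plus strand) and H2-DMb1 (chr17:34153071-34153190, plus strand), 5′ to 3′. They are shown because these members were high together in the same cells, and because they share the spaced pair of elements known from class II promoters. Capitals mark GNAACT, the core letters of the X box, which the RFX complex binds, and TGATTGG, a Y box, which NF-Y binds.
H2-Aa: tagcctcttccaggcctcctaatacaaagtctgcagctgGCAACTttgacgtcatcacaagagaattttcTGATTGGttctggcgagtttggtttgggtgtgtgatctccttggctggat
H2-Eb1: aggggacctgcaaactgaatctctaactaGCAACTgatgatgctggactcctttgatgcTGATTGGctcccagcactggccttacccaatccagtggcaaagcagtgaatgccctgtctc
H2-DMb1: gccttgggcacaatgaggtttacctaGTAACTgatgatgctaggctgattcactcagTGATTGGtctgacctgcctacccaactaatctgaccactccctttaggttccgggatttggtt
The first letter of the X element stood 31, 30 and 31 bases before the first letter of the Y element in H2-Aa, H2-Eb1 and H2-DMb1. The pair, searched on both strands as GNAACT 15 to 40 bases before TGATTGG on the same strand with no overlap, occurred in 69 of 32851 promoter windows of 300 bases (0.210%). TGATTGG on its own was in 7.82% of the windows and GNAACT in 42.8%. The pair was not found in either window of H2-DMa (34122582 to 34122881 and 34125268 to 34125567). Both windows lie inside the gene span given above and do not cover its start, so they do not show whether the pair is there. Among H2-DMb2, H2-Oa, H2-Ob and H2-Eb2 the pair was found in H2-Eb2. These are matches of letters. The libraries hold no measurement of factor binding, and 11 patterns were tried before this pair was chosen.

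Barcodes with at least 1000 UMIs (unique molecular identifiers, each counting 1 captured RNA molecule), at least 500 genes and under 10% mitochondrial UMIs were called cells: 7129 in WT, 3621 in BMT and 5568 in aGVHD. Their median depth was 7355, 6932 and 6977.5 UMIs. Each cell was given 1 of 19 classes by a gate on marker genes, and classes are called "-like" because the names are rebuilt from markers. LepR stromal-like cells, the perivascular cells that support haematopoiesis, numbered 1045 in WT, 537 in BMT and 391 in aGVHD, and were led by Cxcl12, Adipoq and Esm1. Endothelial-like cells numbered 541, 773 and 1206, and were led by Fabp4, Flt1 and Cdh5. Barcodes in no class or passing the gates of both a haematopoietic and a non-haematopoietic class made up 13.6%, 14.3% and 23.3% of the 3 libraries. Pairs of libraries shared 8 to 11 cell barcodes.

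Free RNA in the droplets carried class II transcripts in every library. Empty droplets, barcodes of at most 100 UMIs, held Cd74 at 33.4 CPM (UMIs per 1000000) in WT, 287 CPM in BMT and 350.5 CPM in aGVHD. H2-Ab1 stood at 17.3, 188 and 264 CPM and Ciita at 0.425, 1.16 and 1.25 CPM in the same droplets. Free class II RNA was thus itself several-fold higher in the transplanted libraries. The share of free RNA within a non-haematopoietic class was estimated from haemoglobin and neutrophil granule genes. It was 8.61%, 1.61% and 6.39% of UMIs in LepR stromal-like cells of WT, BMT and aGVHD, and 8.09%, 3.35% and 5.60% in endothelial-like cells. A second estimate, from Y-linked UMIs, gave 2.55% in BMT and 2.20% in aGVHD LepR stromal-like cells, and 5.89% and 4.23% in endothelial-like cells. Neutrophil-like cells, which hold little class II, had Cd74 at 3.49, 20.96 and 22.2 CPM, with a UMI in 3.37%, 8.14% and 8.83% of cells at median depths of 6154, 5049 and 7710 UMIs.

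In LepR stromal-like cells, the class II genes were near the free-RNA level in WT, high in BMT, and higher again in aGVHD. Cd74 (ENSMUSG00000024610) lies apart from the other class II genes, on chromosome 18 from 60803848 to 60812652 of GRCm38. It had 53 UMIs in 1045 WT cells, 3023 in 537 BMT cells and 5128 in 391 aGVHD cells. As levels of summed UMIs this was 7.65 CPM (5.73 to 10.01), 389.7 CPM (376 to 404) and 1045 CPM (1016 to 1074). The WT level stood 2.66 times above the 2.88 CPM that free RNA would give, while the BMT level was 84.3 times and the aGVHD level 46.7 times above its own expectation. With free RNA estimated from Y-linked UMIs these were 53.2 and 135 times, in the opposite order. The Cd74 ratio was 50.9 for BMT over WT (38.8 to 68.2) and 2.68 for aGVHD over BMT (2.56 to 2.81). The BMT library is in both comparisons, so the ratios are not independent. The first fold rests on 53 WT UMIs. It was 30.5 when barcodes passing unlike gates were kept, 21.9 when they were kept at gate factor 5, and 74.98 when free RNA was subtracted. The barcodes so kept raised the WT level to 12.8 CPM and left BMT at 388.8 CPM.

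The I-A and I-E chain genes had the same order of libraries in LepR stromal-like cells. H2-Ab1 was at 5.05 CPM in WT, 300.2 CPM in BMT and 685 CPM in aGVHD. H2-Aa was at 1.15, 173 and 442 CPM, from only 8 UMIs in WT, and H2-Eb1 at 2.89, 172 and 322 CPM. The intervals of the 3 libraries did not overlap for any of these genes. The BMT over WT ratio was 59.4 (42.6 to 85.5) for H2-Ab1, 149.9 (75.9 to 348) for H2-Aa and 59.6 (38.4 to 97.8) for H2-Eb1. Across the alternative settings these ratios ran from 37.0 to 77.5 for H2-Ab1, from 42.8 to 215 for H2-Aa and from 23.1 to 135 for H2-Eb1. The lowest values came at gate factor 5 with barcodes of unlike gates kept. The aGVHD over BMT ratio was 2.28 (2.16 to 2.40), 2.55 (2.38 to 2.73) and 1.87 (1.74 to 2.01). The 3 chain genes therefore differed by similar, small factors between the transplanted libraries, H2-Eb1 by the least.

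The DM genes, which encode the peptide editor, were lower in level but followed the chains. H2-DMa was at 1.88 CPM in WT, 53.1 CPM in BMT and 133 CPM in aGVHD, and H2-DMb1 at 3.46, 45.5 and 79.9 CPM. For aGVHD over BMT, H2-DMa had a ratio of 2.51 (2.22 to 2.85) and H2-DMb1 one of 1.76 (1.52 to 2.03). H2-DMb1 has a near-identical neighbour, H2-DMb2, so the split of UMIs between these copies is uncertain. H2-DMb2 itself had at most 19 UMIs in any of these libraries' LepR stromal-like cells. Ciita (ENSMUSG00000022504, chromosome 16, 10480059 to 10528418), the coactivator gene, had 0 UMIs in WT, 18 in BMT and 17 in aGVHD. Against a floor of 3 UMIs in WT, Ciita was at least 5.36-fold higher in BMT, and aGVHD over BMT was 1.49 (0.723 to 3.07), an interval that includes no difference.

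**Figure D1:**
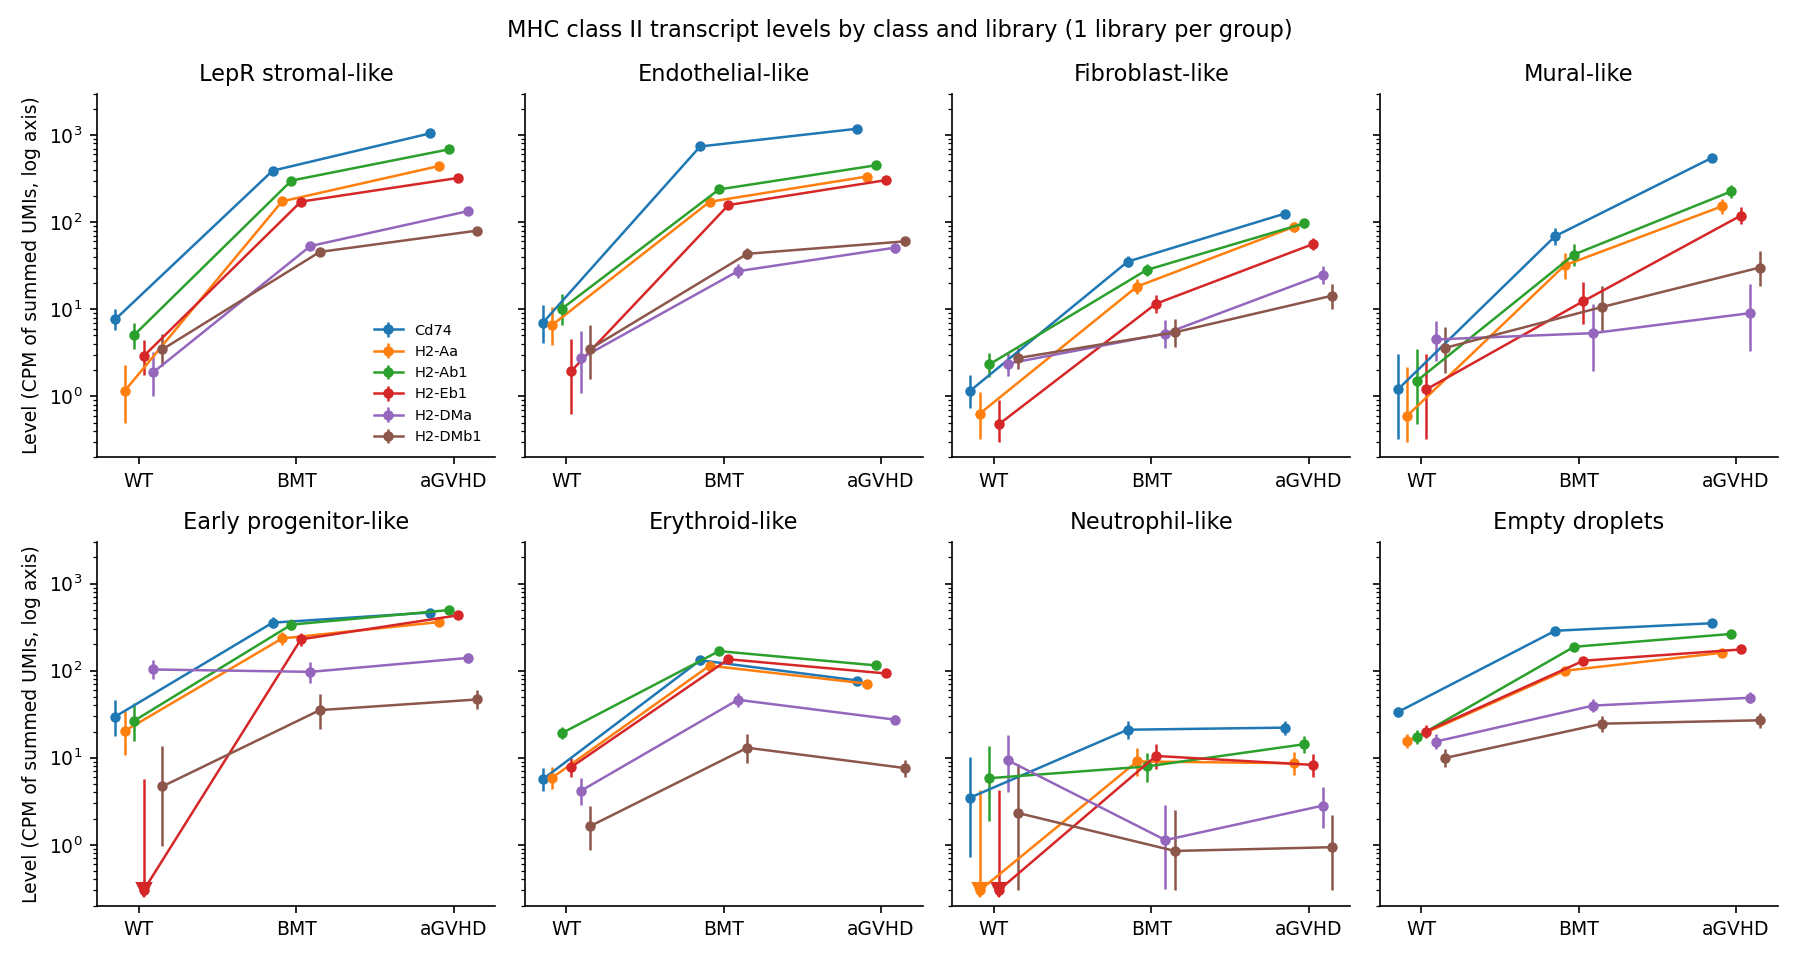
Levels of 6 class II genes (CPM of summed UMIs, log axis) in 7 cell classes and in empty droplets of the WT, BMT and aGVHD libraries, 1 library per group; bars are 95% counting intervals, and downward triangles are genes with 0 UMIs, drawn at the foot of the axis. In LepR stromal-like cells Cd74 goes from 7.65 to 389.7 to 1045 CPM, while in neutrophil-like cells it goes from 3.49 to 20.96 to 22.2 CPM.

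The size rule asks for at least 50 UMIs over both libraries, at least a 2-fold difference, an interval excluding 1, and a level at least 2 times that of the empty droplets in the higher library. In BMT over WT of LepR stromal-like cells, 2.86% of the 10688 genes tested were higher by this rule, and 0 of the 6 members with enough UMIs (Ciita had too few). Every one of the 6 stood only 1.32 to 1.85 times above BMT empty droplets. Without that last condition 6 of 6 passed, against 5.59% of all genes. In aGVHD over BMT, 4 of 6 members were higher (Cd74, H2-Aa, H2-Ab1 and H2-DMa), against 1.4% of the 10357 genes tested, and the same 4 without the last condition, against 2.76%. H2-Eb1 and H2-DMb1 missed the 2-fold size. In aGVHD over WT, 5 of 6 members passed, all but H2-Eb1, against 3.33% of genes, and 6 of 6 without the last condition, against 5.62%. The median log2 ratio of all genes was 0.12 for BMT over WT and −0.14 for aGVHD over BMT, and the Cd74 ratio of aGVHD over BMT was 2.95 when scaled by that median.

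Class II transcripts were spread over most LepR stromal-like cells of the transplanted libraries. Cd74 was found in 37 of 1045 WT cells (3.54%, 2.505 to 4.85), 333 of 537 BMT cells (62.01%, 57.8 to 66.1) and 317 of 391 aGVHD cells (81.1%, 76.8 to 84.8). H2-Ab1 was found in 2.87%, 72.1% and 88.0% of cells, more often than Cd74 after transplantation although its level was lower. Median depths differed (5967, 14817 and 12357 UMIs), so shares were also taken after thinning each cell to 2000 UMIs. Cells with fewer were left out, which kept 1006, 526 and 380 cells. Cd74 was then found in 0.795% of WT, 31.0% of BMT and 57.6% of aGVHD cells, and H2-Ab1 in 0.795%, 34.0% and 60.5%. The order of the libraries stayed, and the step from BMT to aGVHD became wider. Erythroid-like cells were chosen as a class that should lack these genes. Without thinning they had a Cd74 UMI in 3.61%, 30.8% and 12.8% of cells, at median depths of 11238.5, 19624.5 and 10468 UMIs. At 2000 UMIs per cell these shares were 0%, 9.01% and 5.17%. Their aGVHD share was lower than their BMT share, opposite to the LepR stromal-like cells.

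All 4 of Cd74, H2-Aa, H2-Ab1 and H2-Eb1 were found together in 1 of 1045 WT cells, 178 of 537 BMT cells (33.1%, 29.2 to 37.3) and 226 of 391 aGVHD cells (57.8%, 52.7 to 62.7). The product of the 4 single shares was 11.3% in BMT and 37.8% in aGVHD, so the genes shared cells more often than their separate shares give. Depth varies among cells and adds to such an excess. At 2000 UMIs per cell the values were 7.03% against a product of 0.573% in BMT, and 16.3% against 5.14% in aGVHD. In BMT, 89.2% of Cd74-positive LepR stromal-like cells held H2-Ab1, against 44.1% of the cells without Cd74. In aGVHD these shares were 95.6% and 55.4%. None of the 4 genes was found in 92.6%, 16.9% and 6.39% of the WT, BMT and aGVHD cells. The 10% of cells with the most class II held 46.6% of the UMIs of the 4 genes in BMT and 41.2% in aGVHD.

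**Figure D2:**
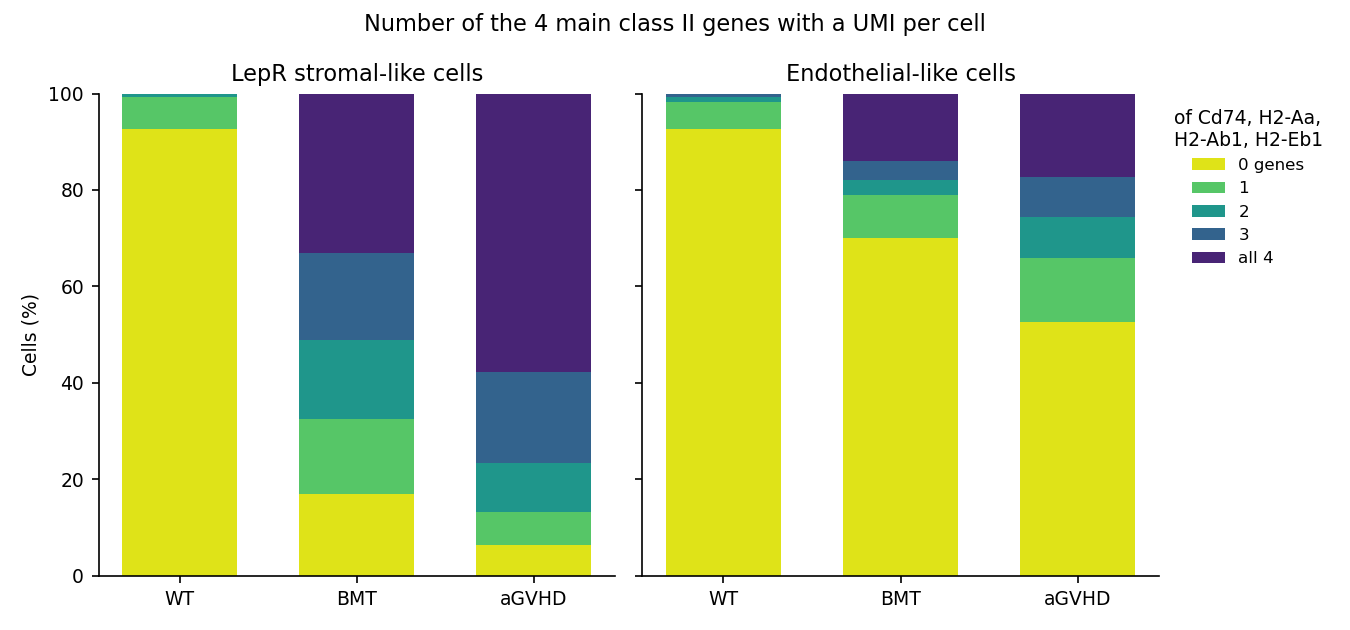
Share of cells (%) by how many of Cd74, H2-Aa, H2-Ab1 and H2-Eb1 had at least 1 UMI, for LepR stromal-like (left) and endothelial-like cells (right) of each library, without thinning. Cells with all 4 genes are 33.1% of BMT and 57.8% of aGVHD LepR stromal-like cells, and 14.0% and 17.4% of endothelial-like cells.

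The summed level of pan-leukocyte transcripts, most of it from Arhgdib, was higher in the libraries with more class II. Within a library, the LepR stromal-like cells that held such transcripts did not have much more Cd74. The 8 pan-leukocyte genes summed to 68.9, 88.95 and 129 CPM in WT, BMT and aGVHD. Of this, Arhgdib alone made up 60.2, 62.4 and 110 CPM. Ptprc, which encodes CD45, was at 0.144, 2.84 and 1.43 CPM. A UMI of any of the 8 was in 325 of 1045, 278 of 537 and 237 of 391 cells. Most UMIs behind this split of cells were thus of Arhgdib. In BMT, cells with no UMI of these 8 genes had Cd74 at 386 CPM, and cells with such a UMI had 392.1 CPM. In aGVHD the values were 1213 CPM without and 964 CPM with such a UMI. Markers of antigen-presenting cells were summed beside class II, a comparison that depends on the cell type. In WT, the 4 dendritic-like cells had their own markers at 902 CPM and the 4 class II genes at 23343 CPM. B lineage-like cells had 5197 and 765 CPM, and monocyte or macrophage-like cells 3157 and 1481 CPM. The sums that follow are for LepR stromal-like cells. The 9 B lineage markers summed to 5.29 CPM in BMT and 1.43 CPM in aGVHD, with 3 and 5 of them at 0, while the 4 class II genes summed to 1035 and 2493 CPM. The 11 monocyte or macrophage markers summed to 16.0 and 6.52 CPM, and the 11 dendritic markers to 8.38 and 12.02 CPM, with 7 of the 11 at 0 in both libraries. Other marker lists did differ between the libraries. A neutrophil marker was found in 10.5%, 35.9% and 49.9% of LepR stromal-like cells of WT, BMT and aGVHD, and an osteolineage marker in 97.8%, 90.5% and 47.3%. The median summed level of the class's own markers was 346, 240.2 and 177 UMIs per 10000. The part of any of these marker lists in the class II levels was not tested. Y-linked UMIs, a sign of the marrow graft where its donors were male, were rare in the class. In BMT, 430 of 537 had Xist and no Y-linked UMI and 3 the reverse, and in aGVHD these were 326 and 2 of 391.

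In endothelial-like cells, Cd74 was higher than in LepR stromal-like cells in both transplanted libraries, but fewer cells held it. In aGVHD this order of levels turned when cells with a pan-leukocyte UMI were left out, with 950.5 CPM in endothelial-like and 1213 CPM in LepR stromal-like cells. Cd74 had 18 UMIs in WT, 3245 in BMT and 5035 in aGVHD, or 6.99 CPM (4.14 to 11.04), 739 CPM (714 to 765) and 1183 CPM (1150 to 1216). H2-Ab1 was at 10.1, 238 and 450.1 CPM, H2-Aa at 6.60, 171 and 334 CPM, and H2-Eb1 at 1.94, 157 and 303 CPM. H2-DMa was at 2.72, 27.3 and 51.0 CPM and H2-DMb1 at 3.49, 43.3 and 60.1 CPM. For each of these genes WT was lowest and aGVHD highest, and the intervals of the libraries did not overlap.

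In endothelial-like cells the BMT level of Cd74 was 106 times that of WT (66.8 to 179). With 18 WT UMIs this fold was loosely set. It was 38.9 at gate factor 5 with barcodes of unlike gates kept, 26.3 with barcodes of unlike gates kept, 57.4 without cells that held a pan-leukocyte UMI, 56.4 at gate factor 3, 58.1 under a stricter gate, 48.3 with every cell weighted the same and 162 with free RNA subtracted. The other ratios of BMT over WT were 23.5 for H2-Ab1, 25.9 for H2-Aa, 81.0 for H2-Eb1, 10.1 for H2-DMa and 12.4 for H2-DMb1. They rest on as few as 5 WT UMIs, those of H2-Eb1. Across the alternative settings the ratio ran from 9.47 (barcodes of unlike gates kept) to 447 (free RNA subtracted) for H2-Eb1, from 8.12 to 27.0 for H2-Ab1 and from 9.27 to 30.3 for H2-Aa. It ran from 4.9985 to 16.7 for H2-DMa and from 6.48 to 22.4 for H2-DMb1. By the size rule 1 of 6 members was higher, Cd74, against 2.81% of the 9041 genes tested, and without the empty-droplet condition 6 of 6, against 5.08%. Leaving out cells with a pan-leukocyte UMI put Cd74, at 549.9 CPM in BMT, under 2 times the empty droplets, and 0 members passed.

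From BMT to aGVHD the ratios over the whole endothelial-like class were smaller than those of BMT over WT. They were 1.60 (1.53 to 1.67) for Cd74, 1.89 (1.76 to 2.04) for H2-Ab1, 1.95 (1.79 to 2.14) for H2-Aa, 1.93 (1.76 to 2.12) for H2-Eb1, 1.86 (1.49 to 2.35) for H2-DMa and 1.39 (1.15 to 1.69) for H2-DMb1. All 6 were above 1 and none reached 2-fold, so 0 of 6 passed the size rule, against 1.54% of the 9239 genes tested (2.57% without the empty-droplet condition). The makeup of the class differed between these libraries. Cells with a UMI of Selp or Stab2, which had the most Cd74 in the division by those genes given below, were 11.5% of it in BMT and 3.07% in aGVHD. Ratios within subsets are also given below, and several were above 2. In aGVHD over WT, 3 of 6 members passed, Cd74, H2-Aa and H2-DMb1, against 4.13% of genes, and 6 of 6 without the empty-droplet condition, against 6%. Ciita had 0, 12 and 34 UMIs in WT, BMT and aGVHD, and its ratio of aGVHD over BMT was 2.92 (1.48 to 6.20). With 46 UMIs in both libraries Ciita was 4 short of the minimum of the size rule.

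Most class II UMIs lay in a minority of the endothelial-like cells of the transplanted libraries. Median depths were 3805, 4541 and 2763.5 UMIs in WT, BMT and aGVHD, so shares of cells with a UMI are limited by depth, most of all in aGVHD. Cd74 was found in 2.59% of WT cells (1.42 to 4.30), 24.3% of BMT cells (21.3 to 27.5) and 35.9% of aGVHD cells (33.2 to 38.7). At 2000 UMIs per cell these shares were 0.461%, 20.1% and 36.0% of the 434, 701 and 912 cells with that many UMIs. At 1000 UMIs, which left out no cell, they were 1.11%, 16.8% and 26.3%. Cells with none of the 4 main genes made up 70.1% of BMT and 52.7% of aGVHD cells, and cells with all 4 made up 14.0% (11.6 to 16.6) and 17.4% (15.3 to 19.7). The products of the single shares were 0.179% and 0.914%. Among Cd74-positive cells, 74.5% in BMT and 74.4% in aGVHD held H2-Ab1, while among cells without Cd74 4.44% and 10.5% did. The 10% of cells with the most class II held 74.8% of the UMIs of the 4 genes in BMT and 66.2% in aGVHD.

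The gene whose level across cells was most like the summed level of the members in endothelial-like cells was Plvap, in both transplanted libraries. Plvap encodes the diaphragm protein of fenestrated endothelium and is high in marrow sinusoids, and it is also 1 of the 10 markers of the endothelial gate. Its Pearson r with the members was 0.77 over 773 BMT cells, the highest of 7936 genes compared, and 0.44 over 1206 aGVHD cells, the highest of 6609. Cells share library and differ in depth, and the members' level had an r with depth of 0.30 and 0.33. The next genes in BMT were Tfpi (0.67), Igfbp4 (0.65), Fam167b (0.64) and the interferon-induced chemokine gene Cxcl9 (0.63). In aGVHD they were Ubd (0.40), Serpina3g (0.39), Csf2rb2 (0.36) and Vcam1 (0.35), of which Ubd is a gene induced by interferon gamma. Splitting the class by Plvap was chosen after these values were seen, so the BMT and aGVHD contrasts between cells with and without Plvap describe what the choice used.

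In BMT, the 204 endothelial-like cells with a Plvap UMI, 26.4% of the class, held 96.1% of the UMIs of the 4 main class II genes. Their Cd74 level was 1745 CPM and 78.4% of them had a Cd74 UMI. The 569 cells without Plvap had Cd74 at 36.0 CPM (29.1 to 44.1), with a UMI in 4.92%, beside a free-RNA expectation of 15.1 CPM. In aGVHD, Plvap cells were 140 of 1206 (11.6%) and held 62.3% of the UMIs, with Cd74 at 3324 CPM and in 84.3% of cells. The 1066 aGVHD cells without Plvap had Cd74 at 528 CPM (503 to 553) and in 29.5% of cells, beside an expectation of 19.7 CPM. The share of endothelial-like cells with a Plvap UMI was 62.5% in WT, 26.4% in BMT and 11.6% in aGVHD. Whether a Plvap UMI is found depends on depth. Among cells of at least 4000 UMIs, 226 had one and 36 did not in WT. These counts were 164 and 291 in BMT, and 94 and 200 in aGVHD. The BMT and aGVHD shares were then close, and the WT share stayed higher. In WT, the 338 cells with and the 203 without Plvap had Cd74 at 7.10 and 6.62 CPM.

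The fold between the transplanted libraries was larger in the cells without Plvap. There the Cd74 ratio of aGVHD over BMT was 14.7 (11.9 to 18.3), against 1.91 (1.81 to 2.001) in cells with Plvap. H2-Eb1 was 14.4-fold higher (9.85 to 21.9), H2-Ab1 11.1-fold (8.47 to 14.7) and H2-Aa 10.5-fold (7.74 to 14.4), against 2.14, 2.03 and 2.09 with Plvap. H2-DMa and H2-DMb1 were 5.21-fold and 5.36-fold higher without Plvap, against 2.14-fold and 1.48-fold with it. For all 6 genes the intervals of the 2 subsets did not overlap. The intervals do not cover the choice of Plvap by its correlation with the members, which was higher in BMT. What that choice adds to the difference in fold was not tested. From WT to BMT the pattern was the other way round: Cd74 was 246-fold higher (146 to 450) in cells with Plvap and 5.44-fold higher (2.05 to 20.4) in cells without it. A cell without a Plvap UMI can be a shallow cell that expresses Plvap, and median depths were 4076 UMIs in BMT and 2646.5 in aGVHD. Among cells of at least 4000 UMIs, Cd74 without Plvap was at 38.0 CPM in 291 BMT cells and 638 CPM in 200 aGVHD cells, a ratio of 16.8 (13.1 to 21.8), and with Plvap the ratio was 2.09. In these deeper cells a Cd74 UMI was in 5.84% of BMT and 47% of aGVHD cells without Plvap. With Plvap it was in 76.8% and 92.6%.

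**Figure D3:**
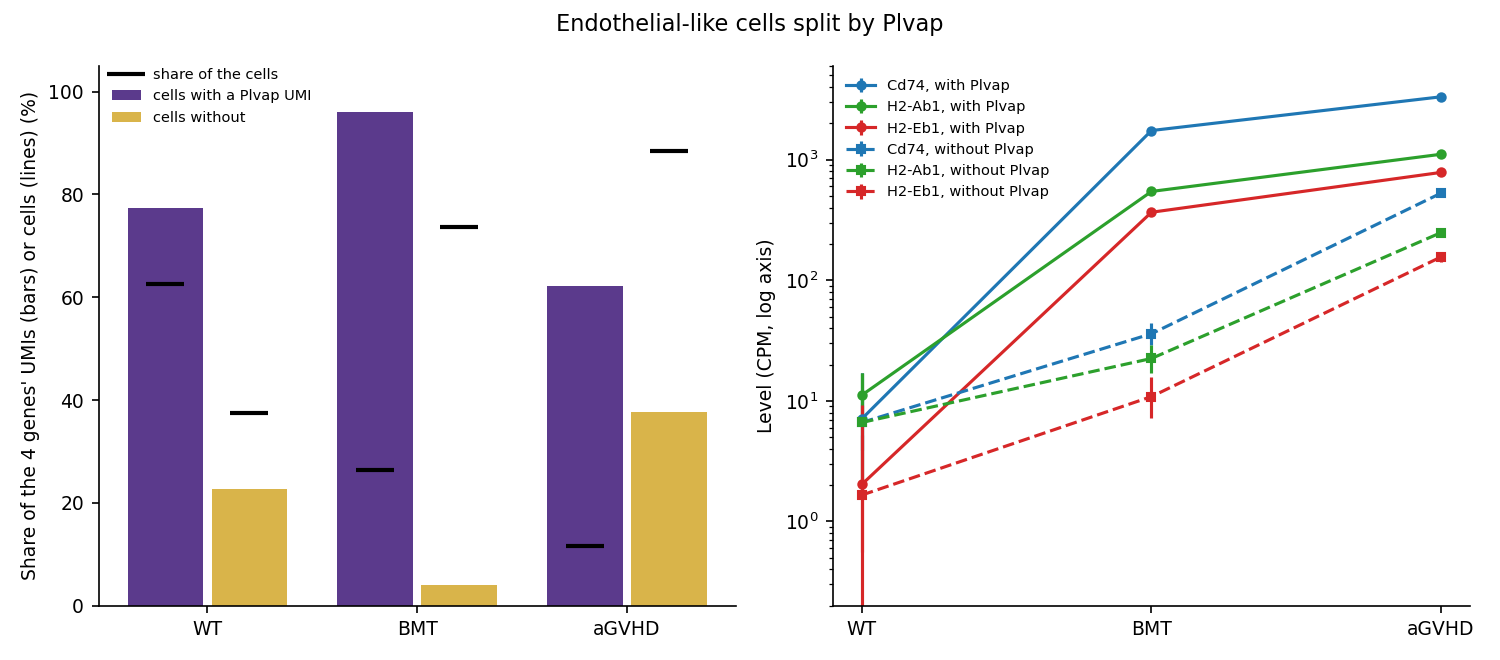
Left, share of the UMIs of Cd74, H2-Aa, H2-Ab1 and H2-Eb1 (bars, %) and share of the cells (black lines, %) for endothelial-like cells with and without a Plvap UMI in each library. Right, levels of Cd74, H2-Ab1 and H2-Eb1 (CPM, log axis) in the same subsets, with 95% counting intervals; without Plvap, Cd74 is at 36.0 CPM in BMT and 528 CPM in aGVHD.

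A division by other endothelial genes gave smaller contrasts in the transplanted libraries than the division by Plvap. Plvap was taken as the gene most like the members in these same cells, so that order was largely set by the choice. Cells with Gpihbp1, a gene of capillary endothelium, and without the sinusoidal or venous genes Selp and Stab2 had Cd74 at 2.03 CPM in WT, 379.9 CPM in BMT and 987 CPM in aGVHD. Cells with Selp or Stab2 had 8.46, 2172 and 3211 CPM. Cells with none of the 3 genes had 13.2, 1072 and 1393 CPM. The aGVHD over BMT ratio of Cd74 was 2.60 (2.44 to 2.77) in the first subset, 1.48 in the second and 1.30 in the third. The first subset was 81.8% of BMT and 90.6% of aGVHD cells. In it H2-Aa had a ratio of 3.19, H2-Ab1 2.88, H2-Eb1 2.89, H2-DMa 2.73 and H2-DMb1 1.88. In the second these were 1.63, 1.69, 1.88, 2.42 and 1.40, and in the third the chain genes had 1.19, 1.30 and 1.48. For BMT over WT the Cd74 ratios were 187, 257 and 81.0. Endothelial-like cells with a pan-leukocyte UMI had more Cd74 than those without, at 1177 against 549.9 CPM in BMT and 1984 against 950.5 CPM in aGVHD. Its part in the result was not tested. The cells without any such UMI alone gave a Cd74 ratio of aGVHD over BMT of 1.73. Lineage markers of B cells summed to 6.21, 15.5 and 3.52 CPM in WT, BMT and aGVHD. Markers of dendritic cells summed to 27.95, 68.3 and 81.5 CPM, with 9, 7 and 8 of 11 at 0, and were found in 11.5%, 28.5% and 22.6% of cells. They were higher in the libraries with more class II, and their part in it was not tested.

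**Figure D4:**
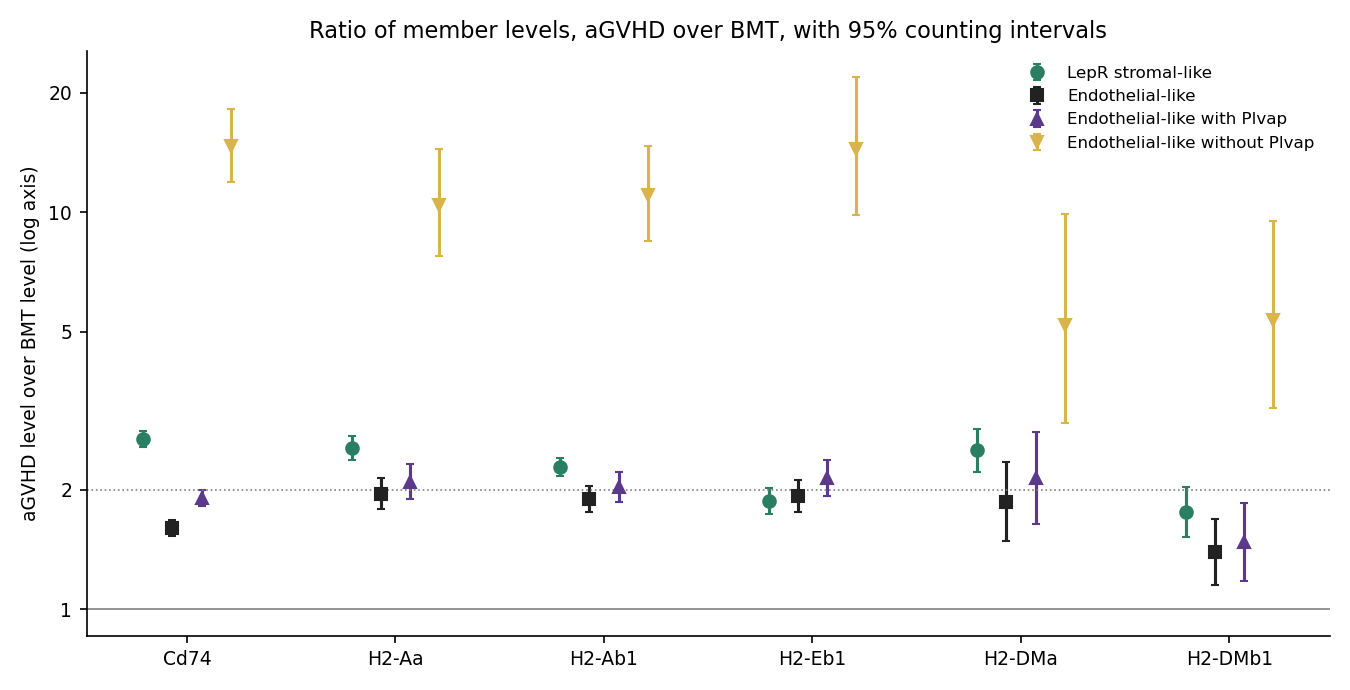
Ratio of the aGVHD level to the BMT level (log axis) of 6 class II genes, in LepR stromal-like cells, all endothelial-like cells, and endothelial-like cells with and without a Plvap UMI; bars are 95% counting intervals, and the lines stand at 1 and 2. Ratios without Plvap run from 5.21 to 14.7, and those of the other cell groups from 1.39 to 2.68.

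The balance of the members differed between the cell classes. Per UMI of H2-Ab1, LepR stromal-like cells had 1.30 UMIs of Cd74 in BMT (1.23 to 1.37) and 1.53 in aGVHD (1.46 to 1.59). Endothelial-like cells had 3.11 (2.90 to 3.34) and 2.63 (2.49 to 2.77). Invariant chain transcript was thus more abundant for each beta chain transcript in endothelial-like cells, in both libraries. H2-DMa was the other way, at 0.177 and 0.195 UMIs per UMI of H2-Ab1 in LepR stromal-like cells and 0.115 and 0.113 in endothelial-like cells. B lineage-like cells had 2.17 UMIs of Cd74 per UMI of H2-Ab1 in WT and 3.36 in BMT, but H2-DMb1 at only 0.00391 and 0.0395. The H2-DMb1 values leave out its near-identical neighbour H2-DMb2, so they do not show that the DM beta chain transcript is low there. These ratios use 3′-captured UMIs of different genes, so they compare classes, not the amounts of the genes.

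Among LepR stromal-like cells, the genes most like the members were Ly6a (0.42), Cxcl9 (0.41), AW112010 (0.30), the complement gene C2 (0.29) and Ifitm3 (0.28) in BMT, by Pearson r over 537 cells. In aGVHD they were Rarres2 (0.45), Ly6a (0.43), Srgn (0.41), Tspo (0.41) and Npc2 (0.37), over 391 cells. Ly6a encodes the surface antigen Sca-1 and was named in both libraries. The members' level had an r with depth of 0.01 in BMT and 0.06 in aGVHD. These are weak correlations in sparse counts and serve as a description.

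Of the list of genes in the signal from interferon gamma to Ciita, 3 are given, and they do not stand for the whole list. In LepR stromal-like cells, the receptor gene Ifngr1 was at 156 CPM in WT, 259 CPM in BMT and 254 CPM in aGVHD. Irf1, which encodes a transcription factor that acts on the Ciita promoter, was at 338, 413 and 339 CPM. The feedback inhibitor gene Socs1 was at 45.2, 51.3 and 52.4 CPM. None of these 3 genes reached a 2-fold difference in either step.

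In endothelial-like cells, Irf1 was at 215, 491 and 607 CPM and Socs1 at 26.0, 69.7 and 120.04 CPM. Their BMT over WT ratios were 2.29 (2.08 to 2.51) and 2.68 (2.05 to 3.55), and both passed as higher without the empty-droplet condition and not with it. For aGVHD over BMT the ratios were 1.24 (1.17 to 1.31) and 1.72 (1.49 to 1.99), under the 2-fold size. Both classes held the subunits that bind class II promoters. None of the RFX, NF-Y and CREB genes with enough UMIs (Rfx5, Rfxap, Rfxank, Nfya, Nfyb, Nfyc and Creb1) was higher in either comparison, 0 of 7 in LepR stromal-like and 0 of 6 or 7 in endothelial-like cells. Over all genes 2.86% and 1.4% were higher in the LepR stromal-like comparisons and 2.81% and 1.54% in the endothelial-like ones, so counts of 0 among so few genes are near the share of all genes. Rfx5 was lower in aGVHD than in BMT LepR stromal-like cells, at 4.48 and 9.28 CPM (0.483, 0.285 to 0.788), without the empty-droplet condition, as were 6.46% of genes.

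Of the endosomal proteases and peptide handling genes, which act on class II after transcription, 0 of 7 were higher for BMT over WT in either class, near the 2.86% and 2.81% of all genes. Ifi30, which encodes the endosomal thiol reductase, was at 27.3 CPM in WT and 11.5 CPM in BMT LepR stromal-like cells (0.421, 0.323 to 0.544), lower without the empty-droplet condition, as were 4.24% of genes. Lgmn, which encodes an endopeptidase that cuts the invariant chain, was at 217 CPM in WT and 70.9 CPM in BMT endothelial-like cells (0.326, 0.283 to 0.375), and passed as lower, as did 1.9% of genes. Ctss, the invariant chain protease of professional presenting cells, had at most 15 UMIs in any of these classes and libraries. Ctsl, which does that step in thymic epithelium, was far more abundant, at 934, 617 and 696 CPM in LepR stromal-like and 731, 659.8 and 1048 CPM in endothelial-like cells. March1, whose product removes class II from the surface, had 0 to 2 UMIs.

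Of the 8 costimulatory and checkpoint ligand genes listed, Cd80 and Cd86 were nearly absent. They do not stand for the list: in BMT over WT, 3 of the 8 had enough UMIs for the size rule in each class. The median log2 ratio of those 3 was −0.588 in LepR stromal-like and 2.47 in endothelial-like cells, beside 0.123 and 0.00866 for all genes. Cd80 and Cd86 had at most 5 UMIs in either class, and Cd40 had 2, 3 and 6 UMIs in LepR stromal-like cells and 31, 52 and 38 in endothelial-like cells. Cd274, which encodes the checkpoint ligand PD-L1, did follow the class II genes. It was at 2.45, 36.1 and 57.5 CPM in LepR stromal-like cells, and at 10.1, 94.5 and 568 CPM in endothelial-like cells. In the latter it passed the size rule in both steps, at 9.37-fold (6.30 to 14.5) and 6.01-fold (5.41 to 6.69), a larger second step than that of any member over the whole class.

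The 4 class I genes had smaller ratios of BMT over WT than the 6 class II members at the settings used, from 1.82 to 7.89 in LepR stromal-like cells and from 2.97 to 6.79 in endothelial-like cells. In LepR stromal-like cells H2-K1 was 2.12-fold and B2m 2.25-fold higher in BMT than in WT and both passed, and the peptide transporter gene Tap1 was 7.89-fold higher without the empty-droplet condition. From BMT to aGVHD these 3 ratios were 0.816, 1.10 and 1.27, while those of the 6 class II members were 1.76 to 2.68. In endothelial-like cells the class I genes H2-K1, H2-D1 and B2m had ratios of 1.40 to 1.51 for aGVHD over BMT, within the 1.39 to 1.95 of the 6 class II members. Tap1 had 2.26 (2.07 to 2.46), above them all, and passed the size rule. Whether class II and class I ratios differ beyond the spread between mice was not tested.

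Fibroblast-like cells had little class II, and few of them carried it. Cd74 was at 1.16 CPM in 2011 WT cells, 35.2 CPM in 411 BMT cells and 125 CPM in 461 aGVHD cells, only 2.41 and 2.93 times above the free-RNA expectation in the transplanted libraries (3.83 and 4.17 times with the Y-linked estimate). In BMT, 2 cells held 52.7% of the Cd74 UMIs, and without those 2 the level was 16.8 CPM. In aGVHD the level without the top 2 cells was 86.6 CPM. Cd74 was found in 0.895%, 7.30% and 13.02% of cells. By the size rule 0 of 6 members were higher in either step (1.23% and 1.38% of genes), and without the empty-droplet condition 5 of 6 for BMT over WT (4.48%) and 6 of 6 for aGVHD over BMT (3.15%). The aGVHD over BMT ratio was 3.56 for Cd74 and 4.87 for H2-Aa.

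Mural-like cells, the contractile cells around vessels, showed a larger step to aGVHD. Cd74 was at 1.199 CPM in 533 WT cells, 69.0 CPM in 117 BMT cells and 552 CPM in 98 aGVHD cells. A single cell held 71.8% of the BMT Cd74 UMIs, and without the top 2 cells of each library the levels were 12.7 and 369 CPM. Cd74 was in 9.40% of BMT and 33.7% of aGVHD cells. The aGVHD over BMT ratio was 7.997 for Cd74 (6.25 to 10.3), 9.59 for H2-Eb1, 5.31 for H2-Ab1 and 4.77 for H2-Aa. Of the 4 members tested, 0 passed the size rule (0.466% of genes) and 4 did without the empty-droplet condition (1.84%). All 4 main genes were found together in 14 of 98 aGVHD cells (14.3%, 8.04 to 22.8), and the mean level there was, for Cd74, 18.2 times the free-RNA expectation, or 8.31 times with the estimate from Y-linked UMIs.

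Osteolineage-like cells, the bone-forming lineage, held almost no class II in the 2 libraries with at least 50 cells. Cd74 was at 0.999 CPM in WT and 2.95 CPM in BMT, below the 3.47 CPM expected from free RNA in BMT, and no member had enough UMIs for the size rule. Among these 5 non-haematopoietic classes the order of Cd74 in BMT was endothelial-like, LepR stromal-like, mural-like, fibroblast-like and osteolineage-like, and each neighbouring pair of intervals was separate. The place of mural-like cells rests on few cells: without the top 2 cells of each class they were at 12.7 CPM, below the 16.8 CPM of fibroblast-like cells. In aGVHD the order of the first 4 was the same, and without cells holding a pan-leukocyte UMI LepR stromal-like cells stood above endothelial-like cells. In WT, the intervals of LepR stromal-like and endothelial-like cells overlapped, as did those of the fibroblast-like, mural-like and osteolineage-like cells with each other.

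Chondrocyte-like cells of WT had the DM genes at a high level beside little Cd74. In 590 cells, H2-DMa was at 49.4 CPM (455 UMIs, 33.9% of cells) and H2-DMb1 at 47.5 CPM (438 UMIs, 38.3% of cells), while Cd74 was at 1.52 CPM, H2-Aa at 2.28 CPM and H2-Ab1 at 11.4 CPM. WT empty droplets held H2-DMa at 15.3 and H2-DMb1 at 9.92 CPM. The 51 granulocyte-monocyte progenitor-like cells of WT also had H2-DMa, at 74.0 CPM and in 76.5% of cells, with Cd74 at 4.39 CPM. Both classes of untreated marrow thus held H2-DMa above the empty-droplet level with Cd74 below it.

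In haematopoietic cells that escaped the sort, the members were high in several classes. Cells whose markers matched early progenitors (Myb, Kit, Flt3 and others) numbered 36, 30 and 70, fewer than the 50 cells asked of other classes in WT and BMT, and are given for that reason as description. H2-Eb1 had 0 UMIs in the 36 WT cells and stood at 229 CPM in BMT and 432 CPM in aGVHD, where all 70 cells had it. Cd74 was at 29.7, 356 and 465 CPM, only 1.24 and 1.33 times the empty droplets in BMT and aGVHD. H2-DMa was already high in WT, at 103 CPM, beside 96.8 CPM in BMT and 140 CPM in aGVHD. By the size rule 1 of the 5 members tested was higher in BMT than in WT (3.33% of genes; 4 of 5 without the empty-droplet condition, 6.22%).

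B lineage-like cells, which transcribe class II at rest, had Cd74 at 388 CPM in 224 WT cells and 759 CPM in 220 BMT cells. Their ratio of 1.95 (1.75 to 2.18) was far below that of the stromal classes, and 0 of 5 members passed the size rule (5.95% of genes). Only 5 B lineage-like cells were found in aGVHD. Erythroid-like cells, fixed as the class that should lack class II, held it in the transplanted libraries, with Cd74 at 5.66, 132 and 77.0 CPM. The median log2 ratio of all genes in this class was 0.53 for BMT over WT and −0.59 for aGVHD over BMT, so its member ratios of 0.585 to 0.687 for aGVHD over BMT lay at the shift of all genes. Megakaryocyte-like cells had Cd74 at 30.1 CPM in BMT and 194 CPM in aGVHD, but 1 aGVHD cell held 73.9% of it, and without the top 2 cells of each library the levels were 20.02 and 40.3 CPM.

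The cells that held the UMIs of the 4 main class II genes changed from library to library. In WT, called cells held 5413 such UMIs, of which 30.6% were in 4 dendritic-like cells, 20.5% in 35 monocyte or macrophage-like cells and 20.2% in B lineage-like cells. In BMT, of 24847 UMIs, LepR stromal-like cells held 32.3% and endothelial-like cells 23.1%. In aGVHD, of 59992 UMIs, LepR stromal-like cells held 20.4% and endothelial-like cells 16.1%, and 37.2% were in 665 leukocytes in no class. Those ungated leukocytes, set apart after their values were seen, had at least 3 of 8 pan-leukocyte genes. In aGVHD their leading genes included Plac8, F2r, Cd69, Cdk6 and the class II gene H2-Eb1. These cells had Cd74 at 579.8 CPM (1.65 times the empty droplets) and H2-Eb1 at 507 CPM, and 75.3% of them held all 4 genes. The 291 such cells of BMT had Cd74 at 410 CPM and all 4 genes in 19.6%. Their leading genes included Cxcl2, Il1b, Il1r2 and also Plac8. Median depth was 16617 UMIs in the aGVHD cells and 3088 UMIs in the BMT cells. At 2000 UMIs per cell, all 4 genes were in 17.1% of aGVHD and 3.77% of BMT cells with that many UMIs. As leading genes and depth differed, these shares do not compare like cells.

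**Figure D5:**
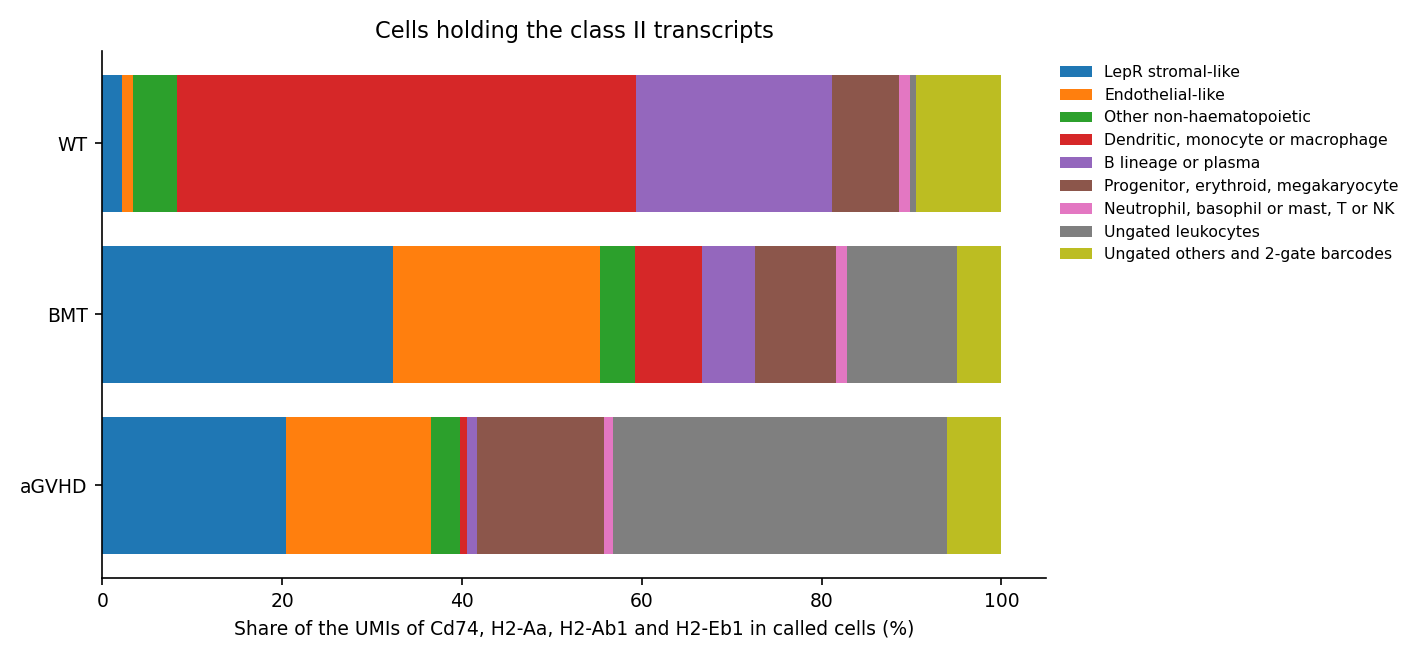
Share (%) of the UMIs of Cd74, H2-Aa, H2-Ab1 and H2-Eb1 in called cells of each library that lay in each group of classes. LepR stromal-like and endothelial-like cells hold 32.3% and 23.1% in BMT, and ungated leukocytes hold 37.2% in aGVHD.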

How the data were processed

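The deposited files hold raw counts: whole UMI counts per gene and barcode for 3 libraries, made by the authors with Cell Ranger 3.1.0, per the file headers, and aligned to mm10, per the submitters' processing notes. All 6794880 barcodes are listed, so empty droplets could be read. Total depth was 86575425 UMIs in WT, 44219063 in BMT and 67439098 in aGVHD. Libraries were grouped by their labels.

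From these counts, cells were called as described, and a class was assigned where at least 3 of its markers had a UMI and their summed UMIs exceeded the free-RNA expectation by a factor of at least 2 (1 UMI added to each side). Factors of 5, 1.5, 2 and 3 were looked at, the first with member values already seen, and 2 was taken. Barcodes passing a haematopoietic and a non-haematopoietic gate were set aside (124, 45 and 124), and no doublet caller was run. UMIs were summed per class and library and scaled to CPM. Ratios have exact conditional intervals, shares exact Clopper-Pearson intervals, and a group at 0 was given a floor of 3 UMIs. Thinning drew UMIs without replacement (seed 1) and left out cells with fewer UMIs than the number drawn. With 1 library per group no test was possible. Free RNA in a class was estimated from 10 haemoglobin and granule genes. The genes named for likeness were the 5 of highest Pearson r in each class and library, among genes in at least 5% of cells. Leading genes of a class were its top 10 by fold over other called cells.

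The members and lists were chosen with earlier results of these data known. The ungated leukocyte group, the endothelial splits, the check of cells with at least 4000 UMIs, the levels without the top 2 cells, the use of neutrophil-like cells as a low class II reference and the promoter patterns were chosen after values were seen. Part of the interferon gamma list is not reported here. Mapping of the BALB/c alleles of CB6F1 mice to mm10 was not examined. Analyses used Python 3.11.15, numpy 2.4.6, scipy 1.17.1, pandas 2.3.3 and matplotlib 3.10.9, and were tested on simulated data.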

Additional observations from a re-analysis of the deposited data

How the results depend on the processing

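All 311 alternative level ratios of members stayed on the same side of 1. The Cd74 ratio of BMT over WT in LepR stromal-like cells (50.9) was 30.5 with barcodes of unlike gates kept, 37.8 at gate factor 5, 21.9 with both, and 74.98 with free RNA subtracted. Its aGVHD over BMT ratio (2.68) was 2.38 under 5% mitochondrial UMIs, 2.86 with the stricter gate, 3.14 without cells holding a pan-leukocyte UMI, 3.04 and 3.03 at factor 5 without and with barcodes of unlike gates, 2.41 with cells weighted the same and 2.95 scaled by the median ratio. In endothelial-like cells the BMT over WT ratio (106) was 58.1, 26.3, 57.4, 56.4, 38.9 and 48.3 with the stricter gate, barcodes of unlike gates kept, no pan-leukocyte UMI, factor 3, factor 5 with such barcodes kept, and equal weights. It was 162 with free RNA subtracted. The aGVHD over BMT ratio (1.60) was 1.70 from 2000 UMIs, 1.75 under 5% mitochondrial UMIs, 1.73 without pan-leukocyte UMIs, 1.4995 and 1.49 at factor 5, and 1.495 with equal weights. Factors 1.5, 3 and 5 were chosen after seeing the data.

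Genes higher by the size rule (306 and 145 in LepR stromal-like, 254 and 142 in endothelial-like cells) were 670, 317, 537 and 367 at 1.5-fold and 597, 286, 459 and 237 without the empty-droplet condition. Members higher in BMT over WT were 1 (LepR stromal-like) and 2 (endothelial-like) with no filter on low counts, 6 and 6 without the empty-droplet condition, and in endothelial-like cells 0 without pan-leukocyte UMIs and 3 at factor 5, with or without barcodes of unlike gates. In aGVHD over BMT endothelial-like cells they were 2 at 1.5-fold, and 1 each with at least 20 UMIs, no filter, median scaling, 2000 UMIs per cell or under 5% mitochondrial UMIs.

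Asking 2 UMIs, thinning to 2000 and to 1000 UMIs gave Cd74 shares of 0.670%, 0.795% and 0.861% in WT, 47.1%, 31.0% and 23.8% in BMT, and 70.1%, 57.6% and 43.0% in aGVHD LepR stromal-like cells. In endothelial-like cells they were 0.739%, 0.461% and 1.11% in WT and 20.4%, 20.1% and 16.8% in BMT (17.9% without pan-leukocyte UMIs), and in aGVHD 28.9% with 2 UMIs and 26.3% at 1000. All 4 genes at 2000 UMIs were in 0%, 7.03% and 16.3% of LepR stromal-like cells, and, in endothelial-like cells, 5.85% for BMT and 12.4% for aGVHD. The cause of these shifts was not tested. WT folds rest on few UMIs. No paired analysis was possible because each group had 1 library, so no replicate could be left out either.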

Other observations

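The class II UMIs of early progenitor-like cells came from cells of both transcript sexes in aGVHD. Xist marks female cells and 4 Y-linked genes mark male cells, and the recipients and the spleen donors were female. In BMT, 25 of 30 early progenitor-like cells had a Y-linked UMI and no Xist, and 0 the reverse, and the 4 class II genes summed to 1072 CPM in those 25. In aGVHD, 39 cells with Y-linked UMIs alone had 1820 CPM (1725 to 1918) and 21 with Xist alone had 1837 CPM (1708 to 1973), so the intervals overlapped. Ungated leukocytes of aGVHD had 2054 CPM (2020 to 2089) in 374 Y-linked cells and 1888 CPM (1839 to 1938) in 159 Xist cells.

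Schwann-like cells held class II in both transplanted libraries from few cells. In 53 aGVHD cells H2-Ab1 was at 312 CPM and in 47.2% of cells, and Cd74 was at 225 CPM, 0.643 times the empty droplets. In 37 BMT cells 1 cell held 80.0% of the Cd74 UMIs, and without the top 2 cells Cd74 was at 6.07 CPM there and at 127 CPM in aGVHD.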
